A study of Mus musculus with 4 samples.

Results

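The cells described here were type 2 conventional dendritic cells that carried Cd209a, a C-type lectin, in MB49 tumours of male and female mice. MB49 is a mouse bladder carcinoma cell line. They were chosen from the sorted CD45-positive libraries by measured transcripts. A cell needed at least 500 unique molecular identifiers (UMIs, 1 per captured transcript), 250 genes and at most 25% mitochondrial UMIs. It also needed at least 2 Cd209a UMIs and at least 1 H2-DMb2 UMI. Cells with 2 or more UMIs of Xcr1 and Clec9a together, 2 or more of Fscn1, or 0.3% or more of their UMIs from C1qa, C1qb and C1qc were left out. The rule found 320 members, 216 from the male mice's library and 104 from the female mice's, among 9974 CD45-positive cells that passed the filter and 19375 in the whole series. The series holds 4 BD Rhapsody single-cell libraries, 1 for each sex and CD45 gate. CD45 marks cells of blood origin. Both CD45-positive groups carried the same tumour line and received no treatment that the labels give. The labels give neither the age, strain and number of the mice, nor whether animals were pooled.

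Conventional dendritic cells take up antigen, display it on MHC molecules and carry it to T cells. Type 1 cells, marked by Xcr1 and Clec9a, are known for presenting antigen to CD8 T cells. Type 2 cells are known for presenting antigen on MHC class II to CD4 T cells and depend on the factors Irf4 and Klf4 in many tissues. On maturation both kinds switch on Ccr7, the chemokine receptor that guides them to lymph nodes, and Fscn1, an actin-bundling protein. Ccl17 is a chemokine that attracts Ccr4-bearing T cells, and Napsa is an aspartic protease of the endosomal pathway.

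The promoters of the lectin that defined the cells and of a chemokine that divided them are shown here, from RefSeq (GRCm38.p6). Each runs from 250 bases before the annotated start to the start base. Cd209a lies on the minus strand at chr8:3743397-3748984 and its promoter at chr8:3748984-3749234. Ccl17 lies on the plus strand at chr8:94810453-94812036 and its promoter at chr8:94810203-94810453. The capitals in Cd209a mark an ETS-IRF composite match (GGAA, any 2 bases, GAAA), the kind of element that PU.1 and Irf4 or Irf8 are known to bind together, on the opposite strand, from 9 bases before the start to the start base. The capitals in Ccl17 mark a STAT match (TTC, any 4 bases, GAA), a palindrome.
Cd209a promoter: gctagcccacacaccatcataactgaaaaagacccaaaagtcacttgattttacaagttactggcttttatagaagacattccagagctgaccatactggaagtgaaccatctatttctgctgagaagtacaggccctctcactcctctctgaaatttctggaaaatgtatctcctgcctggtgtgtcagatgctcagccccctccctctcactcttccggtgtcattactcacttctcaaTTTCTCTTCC
Ccl17 promoter: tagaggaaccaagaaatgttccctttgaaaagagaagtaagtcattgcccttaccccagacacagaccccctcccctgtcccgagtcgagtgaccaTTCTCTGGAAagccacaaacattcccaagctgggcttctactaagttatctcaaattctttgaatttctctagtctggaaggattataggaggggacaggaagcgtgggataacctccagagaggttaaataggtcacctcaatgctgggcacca
Both strands were searched, and each promoter held 1 match of the motif named, the 2 motifs being searched in different genes. In the 32851 RefSeq promoters of 300 bases, the composite occurred in 2.72% and the STAT motif in 6.95%. A match is a run of letters and no evidence of binding.

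The median UMI count of a member was 7974.5 (male) and 7785 (female), and the sums over members held 1752376 and 904453 UMIs. With 1 library per sex, no difference between the sexes could be tested. Intervals are 95% exact intervals of counting error, and sex cannot be told apart from anything else that differed between the 2 libraries. Levels (CPM, counts scaled to a common library total) were taken on UMIs summed over the members of a library. Ddx3y, on the Y chromosome, stood at 207 and 0 CPM and Xist, from the inactive X chromosome, at 0 and 133 CPM in members of the male and female library, as the labels say. Cell barcodes were deposited as numbers restarted in each library, so barcodes shared between libraries could not be counted. The T cells of the same libraries (836 and 451 cells, median 2539.5 and 2931 UMIs, highest 33020 and 40853) were used as a comparison for RNA of other cells. Fibroblast markers summed to 76.0 and 905 CPM and tumour cell markers to 28.5 and 184 CPM in male and female T cells. Female members held 27.6 and 38.7 CPM of these lists, so T cells were no even measure of free RNA. Their summed C1q level was 526 CPM (male) and 1236 CPM (female), beside 496 and 1064 in the members and 11393 and 10101.6 in the macrophages. T cells were held to the same C1q limit of 0.3% as the members, and member C1q lay below their level in both libraries. Macrophage markers other than C1q also summed higher in female than in male T cells, as given below.

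Several marker genes fitted the name, while others of the list, among them Flt3, Zbtb46, Irf4 and Clec10a, were sparser. Without thinning, Zbtb46 had a UMI in 33.8% of male and 29.8% of female members, Irf4 in 31.9% and 33.7% and Clec10a in 33.8% and 51.9%. The monocyte marker Cd14 had a UMI in 74.5% and 76% of members, and Ly6c2, another, in 7.41% and 26.9%. Whether some members came from monocytes was not tested. Besides Cd209a (1520.2 and 1292 CPM, male and female) and H2-DMb2 (1162 and 1127 CPM), which chose the cells, Mgl2, a galactose-binding lectin, had a UMI in 97.2% and 97.1% of members and the integrin Itgax in 96.8% and 94.2%. Mgl2 was shared with macrophages (88.2% and 89.2% of cells at equal depth, beside 90.5% and 94.1% of members). H2-Aa, H2-Ab1, H2-Eb1 and Cd74, the MHC class II chains and their chaperone, were present in every member. To set classes side by side, each cell was thinned to 2000 UMIs, which left out 5 male and 2 female members. Ccl17 was then detected in 45% (38.2 to 52) of male and 33.3% (24.3 to 43.4) of female members, against 2.54% and 4.96% of T cells, and in 55.6% and 49% without thinning. Napsa was detected in 55.9% (48.9 to 62.7) and 39.2% (29.7 to 49.4), against 2.9% and 2.92% of T cells, and in 88.9% and 72.1% without thinning. Flt3, the receptor for the growth factor of dendritic cells, was sparser than Ccl17 and Napsa: 13.7% (9.4 to 19.1) and 8.82% (4.11 to 16.1) after thinning, below type 1 cells (35.6% and 23.3%), and 32.4% and 32.7% without thinning. It was in 0.725% and 0.583% of thinned T cells.

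Members held 73.9% and 58.4% of the Cd209a UMIs of their libraries, a share that follows in part from the rule. They held 25.7% and 23.6% of the Ccl17 UMIs and 30.5% and 13.7% of the Napsa UMIs. Markers of some type 2 subsets were nearly absent: Esam had a UMI in 0 male and 1 female member, Dtx1 in none of either library, Clec4a4 in 3 and 2, and Tbx21 in 8 and 3. Of 11 B and plasma cell markers, 7 were at 0 in both libraries (Cd79a, Cd79b, Ms4a1, Pax5, Ebf1, Jchain and Mzb1), and the list summed to 74.2 and 33.2 CPM, with 91 and 28 UMIs of Ighm and 37 and 1 of Igkc. T and NK cell markers summed to 219 and 160.3 CPM over 11 genes, neutrophil markers to 159.8 and 125 CPM over 8, and the 7 tumour cell markers to 47.4 and 38.7 CPM, with Krt5, Krt14, Krt19 and Krt7 at 0. Monocyte markers summed to 2094 and 2497 CPM over 12 genes, led by Cd14, Plac8 and Ms4a4c. Plasmacytoid markers summed to 223 and 416 CPM over 8 genes, mast cell or basophil markers to 18.3 and 9.95 over 6, and fibroblast markers to 10.3 and 27.6 over 5.

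**Figure D1:**
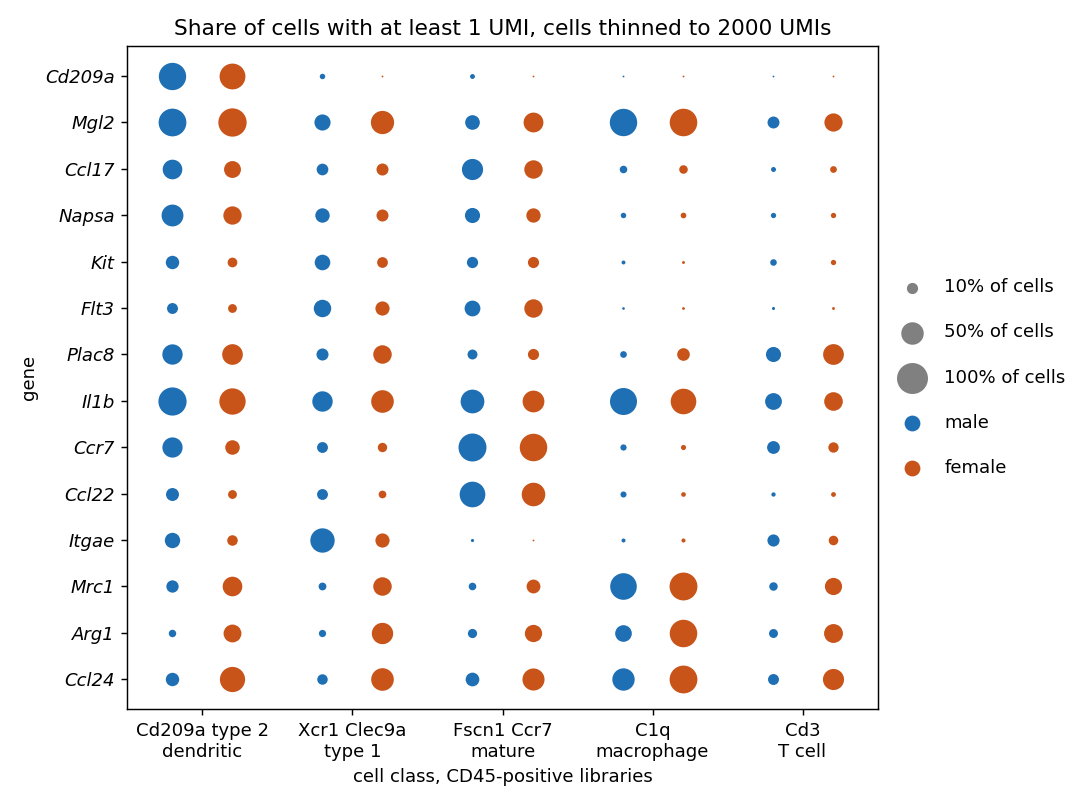
Share of cells with at least 1 UMI of a gene (dot area) after thinning each cell to 2000 UMIs, by cell class (x axis) and gene (y axis), male in blue and female in orange, 1 library each. Cd209a was high by the rule in the first class, in 87.7% and 78.4% of thinned members, and Ccl24 and Arg1 were detected in a larger share of female than male T cells as well as members.

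Members made up 4.02% (3.51 to 4.58) of male CD45-positive cells and 2.26% (1.85 to 2.74) of female ones, a male:female ratio of 1.77 (1.40 to 2.26). Type 1 cells were apart by more, 200 against 32 cells (5.34-fold, 3.66 to 8.02). Mature Fscn1 Ccr7 cells were apart by about as much, 144 against 66 (1.86-fold, 1.38 to 2.53). T cells also made up a larger share in the male library (1.58-fold, 1.41 to 1.78), and C1q macrophages lay the other way (0.797-fold, 0.753 to 0.843). The mature rule also caught 82 male and 90 female cells in the CD45-negative libraries (1.49% and 2.30%), so that class may not hold dendritic cells alone. Among the member, type 1 and mature classes together, the members were 38.6% (34.5 to 42.7) of 560 male cells and 51.5% (44.4 to 58.6) of 202 female cells. The rule was close to the data at some edges. In the male and female libraries 11 and 10 members had exactly 2 Cd209a UMIs, while 40 and 33 cells with 1 UMI met the other conditions. The C1q limit removed 43 and 39 cells that met all other conditions, of which 5 and 5 lay between 0.3% and 0.4%, beside 5 and 3 members between 0.2% and 0.3%. With a limit of 0.1% the members were 197 and 49 and the ratio of shares was 3.43. C1q in T cells also differed between the libraries, as given above, and its part in the ratio was not tested. With at least 2 UMIs of T or NK cell, neutrophil or B cell markers as a reason to leave a member out, 128 and 47 stayed and the ratio was 2.33. Neither CD45-negative library held a member (0 of 5496 and 0 of 3905 cells, with upper interval ends of 0.0671% and 0.0944%).

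Against macrophages of the same library, members held more RNA of Sept3, Ctnnd2, Adam23 and Siglecg, among others, and less of Selenop, Stab1 and Msr1. A gene was compared where it held at least 100 UMIs in both classes together and 100 CPM in the higher, and was counted where members were at least 4-fold higher in both libraries: 51 of 1989 genes (2.56%). Rule genes are not in these counts. The members were picked with C1q in the rule, so folds are a description. Ranked by the smaller of the 2 folds, Sept3, a septin of the cytoskeleton, came first at 51.6-fold (44.4 to 60.2) and 90.7-fold (71 to 117), male library first. Ctnnd2, a delta-catenin, followed at 48.5 and 78.1-fold and Adam23, a membrane protein of the ADAM family, at 64.8 and 30.2-fold. Siglecg, an inhibitory sialic acid receptor, stood at 77.8 and 26.8-fold. Ccr7 was 23.2 and 19-fold higher and Kit, the stem cell factor receptor, 23.2 and 18.3-fold. H2-Ob, a chain of the regulator that restrains peptide loading on MHC class II, was 16.6-fold higher in the female library, and its interval in the male one ran from 17 to 23.5-fold. Klrd1 (CD94), Dpp4, a peptidase also named CD26, and Plet1 were 16.4 and 22, 15 and 16.7 and 17.6 and 13.3-fold higher, Napsa 28.6 and 13.3-fold and Ccl17 13.1 and 18.9-fold.

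In the other direction, 84 genes (4.22%) were at least 4-fold lower in members than in macrophages in both libraries. They included Selenop, a secreted selenium carrier (37.5-fold and 23.1-fold higher in macrophages), the growth factor Igf1 (17.1-fold and 13.4-fold), the scavenger receptors Stab1 (32.7-fold and 13.6-fold) and Msr1 (31.6-fold and 13.6-fold), the prostaglandin enzymes Ptgs1 (43.5-fold and 15.3-fold) and Hpgds (17.9-fold and 13.8-fold), and the transcription factor Maf (12.2-fold and 11.3-fold). In each of these 7 genes the gap was wider in the male library, whereas Gas6 and H2-M2, which are on the list of 84 as well, had the wider gap in the female library.

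By the count of genes, type 1 cells were closer to the members. Only 12 of 1890 genes (0.635%) were at least 4-fold higher in members in both libraries, and 32 female type 1 cells set the precision. T and NK cell markers summed to 234 and 1405 CPM in male and female type 1 cells. Macrophage markers other than C1q summed to 958 and 3299 CPM there. Folds over this class, and its male:female values given below, are to be read with that. The 12 were led by Gfra2, a receptor of the neurturin family, at 10.1-fold (6.71 to 15.8) and 27.7-fold (7.54 to 230.4), and the keratin Krt80 at 8.65-fold (6.2 to 12.4) and 7.94-fold (3 to 29.8). Cxcl10 was 8.32-fold (6.06 to 11.7) and 7.4-fold (2.42 to 36.8), on 3 UMIs in the female type 1 cells, and Ms4a4c 13.3 and 5.88-fold higher. Ccl17, which also marked the members against macrophages, was 4.48-fold (4.1 to 4.9) and 5.05-fold (4.08 to 6.34). Siglecg, at 5.5-fold (4.23 to 7.24) and 7.29-fold (2.38 to 36.3), and Ctnnd2, at 14.8 and 5.46-fold, were on both lists too. S100a4, a calcium-binding protein, was 8.91 and 4.2-fold higher, Tnip3, an inhibitor of NF-kB signalling, 11.4 and 4.92-fold, and Lilrb4, an inhibitory receptor, 12.6 and 4.27-fold. The remaining 2 were Ank and Pxdc1, at 7.42 and 4.33-fold and 4.06 and 5.35-fold. With a C1q limit of 0.1% this count was 51 and with 1% it was 7. A further 18 genes (0.952%) were at least 4-fold higher in type 1 cells, among them the adhesion molecule Cadm1 (111-fold and 29.3-fold), the nuclease Dnase1l3 (13-fold and 11.8-fold), the lysosomal thioesterase Ppt1 (14.2-fold and 10.2-fold) and Btla, an inhibitory receptor (12.9-fold and 9.96-fold). Gcsam had no UMI in any member and was at least 68.2-fold and 25.4-fold higher in type 1 cells, with 3 UMIs over the group as the floor.

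Against mature dendritic cells, 68 of 2056 genes (3.31%) were at least 4-fold higher in members in both libraries. Itgam (CD11b), an integrin of type 2 and other myeloid cells, was 22.2-fold (14.3 to 36.6) and 15.5-fold (9.92 to 25.6) higher, and Itgae (CD103) 16.5-fold (9.12 to 33.5) and 29.8-fold (8.02 to 249.9). Alox5ap, which feeds leukotriene synthesis, was 13.1 and 13.1-fold higher, and the adhesion molecule Cdh1, or E-cadherin, 15.7 and 9.62-fold. Ms4a4c and Ms4a6c, which are members of a family of similar genes, were 20.1 and 29.7 and 9.92 and 16.6-fold higher. Plet1 was 12.7 and 12.1-fold higher, Ear2 19.4 and 13.2-fold, Gpr171 17.7 and 11.4-fold and Qpct 19.6-fold (8.87 to 54.1) and 14.2-fold (4.65 to 70.6). Ctnnd2 and Sept3 rested on 1 to 11 UMIs in the mature cells, at 26.1-fold (11 to 81.1) and 41.9-fold (7.26 to 1682), and 149-fold (50.8 to 724) and 16.6-fold (9.11 to 33.6). In the mature class, 3 of 144 male and 6 of 66 female cells held at least 2 UMIs of the epithelial keratins Krt8 and Krt18, while no member did. Fibroblast markers summed to 335 and 4533 CPM and tumour cell markers to 239 and 969 CPM in male and female mature cells, so folds over this class are to be read with that. The count of genes was 36 with a C1q limit of 1%.

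The members were not uniform, and the same division appeared in both libraries. Ccl17, at 1349.6 and 1456 CPM in the sums, ranged from 0 to 236 UMIs per male cell and from 0 to 164 per female cell. A smaller share of cells with Ccl17 held Plac8, a small cysteine-rich protein of monocytes and plasmacytoid and other immune cells. After thinning, Plac8 was found in 26.3% (17.8 to 36.4) of cells with and 66.4% (57 to 74.9) of cells without a Ccl17 UMI among male members, and in 17.6% (6.76 to 34.5) of cells with and 66.2% (53.7 to 77.2) of cells without it among female members. Plac8 was also found in 26.4% and 50.4% of T cells, so in the female library its overall share in members, 50% (39.9 to 60.1), did not exceed the share in T cells. Ccl17, Plac8 and Ccr7 were taken as dividing genes after their values were seen, and all genes come from the cells that were divided, so the ratios that follow are descriptions.

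**Figure D2:**
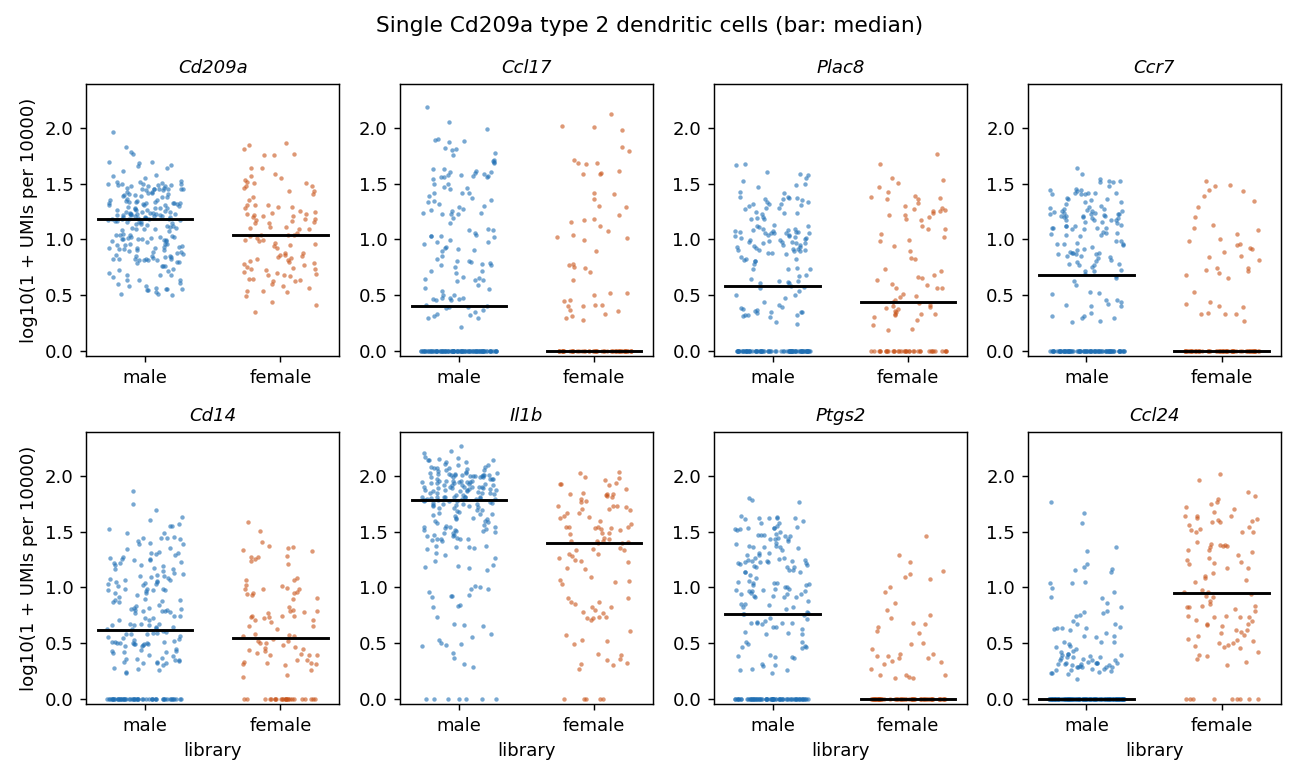
UMIs per 10000 of 8 genes in each of the 216 male and 104 female members on a log10(1 + x) scale (y axis) by library (x axis), with a bar at the median cell. Ccl17, Plac8 and Ccr7 each had many cells at 0 and many well above it in both libraries, Il1b and Ptgs2 were higher in male and Ccl24 in female members.

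Cells with a Ccl17 UMI after thinning (95 of 211 male and 34 of 102 female, median 8577 and 9756 UMIs, against 7782 and 6973 in cells without) were compared with the rest at full depth. A total of 9 of 1759 genes (0.512%) were at least 2-fold higher in both libraries. Dcstamp, a membrane protein needed for fusion of osteoclasts and expressed in dendritic cells, went from 48.6 to 285 CPM among male cells and from 49.6 to 453 CPM among female cells. Its ratios were 5.87-fold (4.24 to 8.29) and 9.12-fold (6.02 to 14.4). Ccl22, which shares its receptor Ccr4 with Ccl17, followed at 8.21 and 4.82-fold. Cd14, a co-receptor for lipopolysaccharide, was 2.54 and 2.6-fold higher and the elastase Mmp12 2.44 and 3.39-fold. The receptor kinase Axl was 2.83 and 2.96-fold higher, the cystine transporter Slc7a11 2.08 and 3.96-fold, Anxa4 3.28 and 2.6-fold and Alpk2 2.95 and 3.12-fold. The last was Ccl9, at 2.19 and 2.02-fold. The female side of this split rests on 34 cells.

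A further 12 genes (0.682%) were at least 2-fold lower in cells with Ccl17, that is, higher in cells without it. Of these, Cd7, an immunoglobulin-family receptor, was higher in cells without Ccl17 by 5.49-fold among male and 9.13-fold (2.9 to 46.2) among female cells. Ffar2, a receptor for short-chain fatty acids, was higher there by 3.36-fold among male and 9.37-fold (2.98 to 47.4) among female cells, and Plac8 was 3.2 and 4.93-fold higher. The chemokine Ccl4 was 3.57 and 3.81-fold higher there. The other 8 included interferon-induced genes: Irf7, a factor of the interferon response (3.07 and 3.14-fold), Ifitm1 (2.14 and 2.79-fold), Ifi203 (2.01 and 3.14-fold), Ifi204 (2.04 and 5.7-fold), Bst2 (2.01 and 2.11-fold) and Slfn5 (2.37 and 2.41-fold), with Ms4a6b at 2.61 and 2.1-fold. Ifitm6, on 2 female UMIs in cells with Ccl17, was apart by 2.25-fold among male and 18.7-fold (4.93 to 159) among female cells. The Ifitm and Ifi200 genes have close relatives between which reads may be shared.

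Dividing the same cells by Plac8 (102 male cells with and 109 without it, 51 and 51 female cells) gave counts of the same order. Of 1769 genes, 9 (0.509%) were at least 2-fold higher with Plac8 in both libraries and 16 (0.904%) lower. Flt3 was higher with Plac8 at 2.58-fold (1.69 to 4.02) and 2.72-fold (1.65 to 4.58), from 34.9 to 90.1 CPM among male cells and from 48.2 to 131 CPM among female cells. Ifitm6 was 3.59 and 5.98-fold higher, Cd7 3.3 and 4.21-fold, Irf7 4.44 and 2.51-fold and Cyp4f16, a cytochrome P450, 2.45 and 2.52-fold. Among genes higher without Plac8 were Ccl17 (5.75 and 10.4-fold), the monocyte chemokine receptor Ccr2 (3.47 and 3.14-fold), Cd14 (3.1 and 4.02-fold), Mmp12 (3.03 and 4.28-fold) and Dcstamp (2.34 and 8.93-fold). Ccr2 and Cd14, from the monocyte list, were thus higher in cells without Plac8, which is on the same list.

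Ccr7 was also used to divide the members. It was detected after thinning in 47.9% (41 to 54.8) of male and 24.5% (16.5 to 34) of female members, and in 19% and 12.2% of T cells, which express it themselves. Without thinning the shares in members were 59.7% and 38.5%. Plac8 was found in 47.5% (37.5 to 57.7) of cells with and 49.1% (39.4 to 58.8) of cells without Ccr7 among male members and in 56% (34.9 to 75.6) of cells with and 48.1% (36.5 to 59.7) of cells without it among female members, and the intervals overlapped in both libraries. Ccr7 was found in 53.7% of male members with and 43.1% without Ccl17, and in 26.5% and 23.5% of female members, again with overlapping intervals. Whether these divisions were independent was not tested. The cells counted here had fewer than 2 Fscn1 UMIs and so were not in the mature class. Of 1769 genes, 26 (1.47%) were at least 2-fold higher with Ccr7 in both libraries (101 with and 110 without, 25 with and 77 without) and 6 (0.339%) lower. Il12b, the p40 chain of interleukins 12 and 23, was at 108 CPM with and 5.53 without Ccr7 in the male library, 19.6-fold apart (8.09 to 61.8). In the female library it was at 91.8 and 0 CPM, at least 19.9-fold higher, with 3 UMIs over the group as the floor.

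Tbc1d4, a regulator of vesicle traffic, was 3.9-fold (3.35 to 4.55) and 4.02-fold (3.1 to 5.23) higher with Ccr7. The costimulatory receptor Cd40 was 2.58 and 3.23-fold higher and Tnfsf9, the ligand of 4-1BB, 2.11 and 3.34-fold. Ccl22 was 4.3 and 3.21-fold higher and the oxysterol receptor Gpr183, which positions dendritic cells in lymphoid tissue, 3.28 and 2.3-fold. Ptgs2 (cyclooxygenase 2) was 2.41 and 3.83-fold higher, and Zbtb46, the transcription factor of conventional dendritic cells, 2.13 and 2.49-fold. Swap70, Siglecg and the survival factor Bcl2l1 were 2.81 and 3.57, 2.8 and 2.6 and 2.03 and 2.74-fold higher, and the signalling adaptors Traf1 and Traf4 2.4 and 2.42 and 3.21 and 2.31-fold. The 6 lower genes were Retnla, F10, Hhex, Ccr2, Kpnb1 and Oxct1, and Ccr2 was 2.58 and 2.27-fold higher in cells without Ccr7. Ccr2 was also higher in cells without Plac8, and Ccl22 was also higher in cells with Ccl17, so the divisions shared genes.

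**Figure D3:**
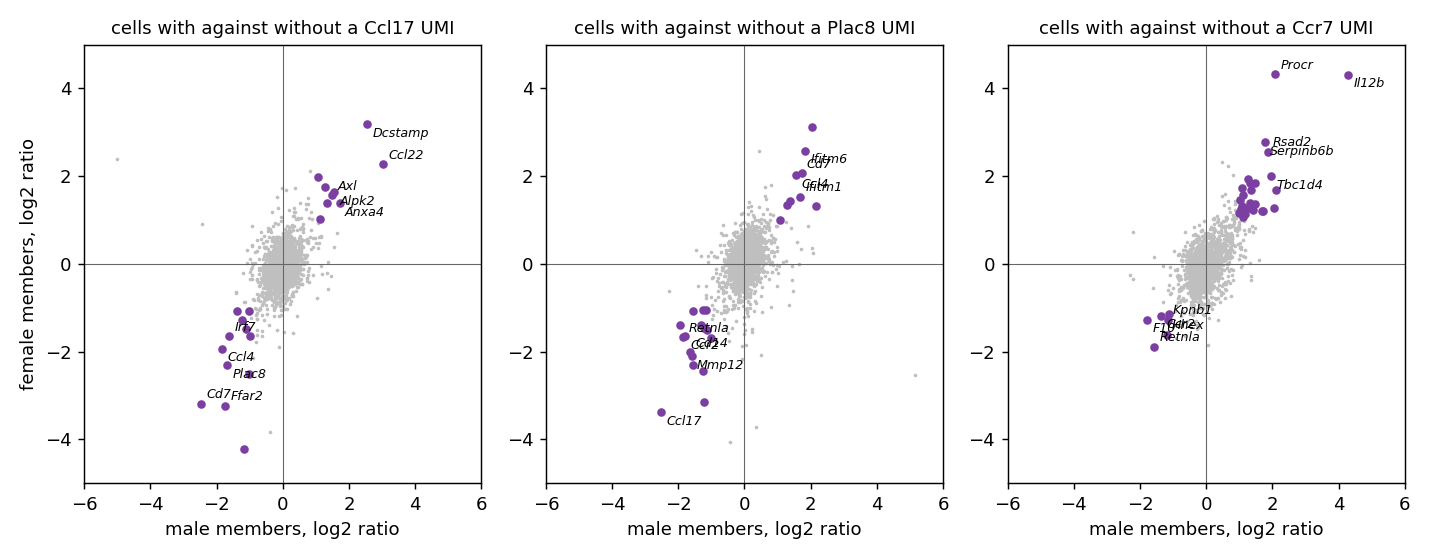
For each tested gene, the log2 ratio of members with against members without a UMI of Ccl17, Plac8 or Ccr7, male on the x axis and female on the y axis, with genes at least 2-fold apart in the same direction in both libraries in purple and up to 5 of those furthest out on each side named. Dcstamp and Ccl22 lay with Ccl17, Ifitm6 with Plac8, and Il12b with Ccr7.

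Between the sexes most genes lay close to equal in the members. Of 1818 genes with at least 100 UMIs in both sums together and 100 CPM in the higher, 35 (1.93%) were at least 2-fold higher in male members and 49 (2.7%) in female members, 84 in all (4.62%). At 1.5-fold, 122 (6.71%) and 155 (8.53%) were counted. The median log2 male:female ratio of the 1818 genes was -0.05. Male members carried more RNA of cell division, of the prostaglandin enzyme Ptgs2 and of Il1b. Female members carried more RNA of genes that tumour macrophages also make. When each cell was thinned to 2000 UMIs first, 20 genes of 1004 tested were called on the female side. With members holding 2 or more UMIs of other cells' markers left out, 78 of 1810 were called on the male side.

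Ptgs2, which makes the precursor of prostaglandin E2, was at 1017 CPM in male members and 197 CPM in female ones (5.17-fold, 4.43 to 6.06). It had a UMI in 145 of 216 male and 37 of 104 female members, and in 54.5% (47.5 to 61.4) and 18.6% (11.6 to 27.6) after thinning. T cells held 64.9 and 84.1 CPM of it, in the opposite order. Ptgs2 was 451 and 199 CPM in macrophages, and in type 1 cells it was lower in the male library (125 and 239.6 CPM). Adam23, a marker of dendritic cells against macrophages, was at 188 CPM in male members and 47.5 CPM in female ones (3.95-fold, 2.87 to 5.56). It was at 8.52 and 6.84 CPM in T cells, 148 and 35.6 in type 1 cells and 204 and 160 in mature cells. Htra3, a secreted serine protease, was 3.69-fold higher in male members, Ffar2 2.79-fold and Ccl22 3-fold (282 and 94 CPM). Macrophages held 55.7 and 21.8 CPM of Htra3 and T cells 5.57 and 28.9 CPM. Hspa1a, a heat shock gene with a near-identical neighbour Hspa1b, was 3.18-fold higher, and its log2 ratio was 1.67 here and 0.34 with a C1q limit of 1%. The other 6 of the 12 largest ratios were Ube2c, Mki67, Hmgb2, Pclaf, H2afv and Birc5, which dividing cells express.

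Ccl24, an attractant of eosinophils made by tissue macrophages, was the most abundant of the 12 genes highest in female members, at 243 CPM in male members and 1721 CPM in female ones. It was 7.08-fold (6.36 to 7.9) higher in female members. Its level in T cells of the same libraries was 194 and 911 CPM, and after thinning it was in 20.9% (15.6 to 27) and 74.5% (64.9 to 82.6) of members and 13.8% and 52.2% of T cells. The collagenase Mmp13 and the arginine-degrading enzyme Arg1 were 5.46 and 5.05-fold higher in female members, but in T cells too Mmp13 stood at 97.7 and 685 CPM and Arg1 at 163 and 754 CPM. For both, the level in T cells exceeded the level in members of the same library. Mmp19, Pecam1, Ccl9, Ctsl, Clec4a3 and Ccl8, between 2.9 and 7.03-fold higher in female members, were also higher in female than male T cells. How much free RNA contributed to these differences was not tested.

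In 9 of the 12 genes female T cells were at least 1.5-fold above male T cells. The other 3 were Cyp7b1, Cd164 and Cd209e. Cyp7b1, an oxysterol hydroxylase, was at 17.1 CPM in male members and 115 CPM in female ones (6.72-fold, 4.44 to 10.4). It was at 1.97 and 1.05 CPM in T cells, 0.201 and 1.38 in macrophages and 28.9 and 42.2 in mature dendritic cells. In the female library 31.7% of its UMIs were in members. It had a UMI in 15 of 216 male and 28 of 104 female members. Cd164, a sialomucin, was at 447 CPM in male members and 1379.8 CPM in female ones (3.08-fold, 2.82 to 3.38), beside 467 and 582 CPM in T cells and 191 and 599 in type 1 cells. Cd209e, a relative of Cd209a, was 3.29-fold higher in female members (39.4 and 129 CPM), with 1.64 and 1.05 CPM in T cells. Cd209d was 3.98-fold higher, but 1 cell held 28.6% of its female UMIs. The Cd209 genes are near copies of each other, and reads may have been split between them. Cd209a itself was 1.18-fold higher in male members, but it chose the cells, so its level among them is a description only. In Retnla 1 female cell held 55.9% of the UMIs.

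**Figure D4:**
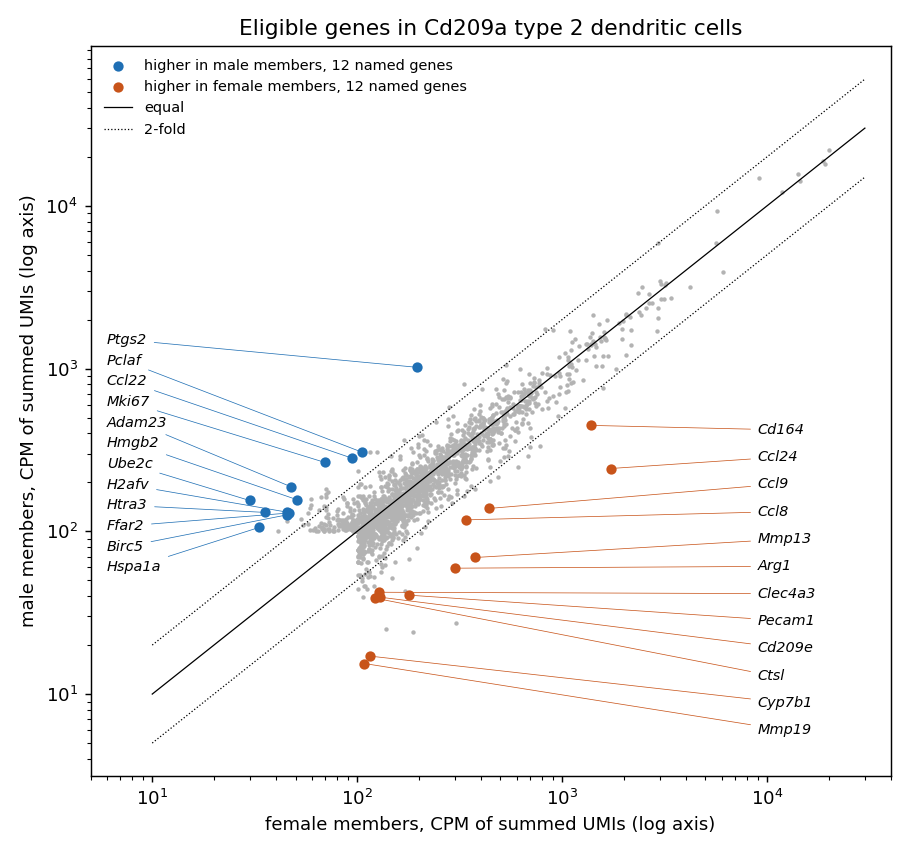
Level of each of 1818 eligible genes in male members (y axis) and female members (x axis), as CPM of summed UMIs on log axes, with equality and 2-fold marked and 12 named genes on each side in colour. Ptgs2 (5.17-fold) lay far from the line on the male side, and Ccl24 (7.08-fold) and Cd164 (3.08-fold) on the female side.

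Among the gene lists with at least 5 measured genes, proliferation was furthest to the male side. A listed gene was measured where it had 20 UMIs in both sums together. Of all 7595 genes with that minimum, 12.2% were at least 1.5-fold higher in male and 15.4% in female members, and these are the shares beside which the list counts are to be read. Of 15 cell division genes, 14 were at least 1.5-fold higher in male members and 0 in female members, with a median log2 ratio of 1.39 beside -0.05 over all genes. The list was chosen with earlier results known. Ube2c, which works with the anaphase-promoting complex, was 5.18-fold (3.48 to 8.01) higher, the division marker Mki67 3.8-fold (2.92 to 5.03) at 265 and 69.7 CPM, and Top2a, which untangles DNA, 2.45-fold (2 to 3.03). The replication factors Pclaf and Mcm5 were 2.92 and 2.08-fold higher. Ccnb1 was the exception at 0.86-fold, on 15 male UMIs. After thinning, 28.9% (22.9 to 35.5) of male members, 61 of 211, and 6.86% (2.80 to 13.6) of female members, 7 of 102, held at least 3 UMIs of the list. In macrophages these shares were 23.9% and 11.5%, and in T cells 39.9% and 26.5%. The list's median log2 ratio was 0.83 in macrophages, 0.73 in type 1 cells, 0.57 in T cells and -0.57 in mature cells, a class that also held tumour cell and fibroblast RNA. Whether the members differed from those classes was not tested.

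Inflammatory cytokines lay on the male side as well. Of 11 measured cytokines, 7 were at least 1.5-fold higher in male and 0 in female members (median log2 0.87). Il1b, interleukin 1 beta, dominated the list at 5938 CPM in male members and 2923 CPM in female ones (2.03-fold, 1.95 to 2.12), and after thinning it was in 93.4% (89.1 to 96.3) and 81.4% (72.4 to 88.4) of members and 33% and 40.5% of T cells. The largest ratios were those of Il1a (2.58-fold) and Il18 (2.49-fold), on 9 and 6 female UMIs. Il6, also among the 7, was on 6 female UMIs with an interval of 0.589 to 4.77. After Il1b, the most abundant were its antagonist Il1rn at 1.44-fold and Tgfb1 at 1.08-fold. Il12b was 2.15-fold higher in male members (54.8 and 25.4 CPM), while Il12a and Il27 had no UMI. The cytokine medians were 0.77 in macrophages and -0.44 in type 1 cells. Of 11 NF-kB targets, 7 were male-higher by 1.5-fold and 0 female-higher (median 0.71). The 7 were led by Icam1, on 25 male and 5 female UMIs, with an interval of 0.97 to 8.63. Nfkbia, the inhibitor that NF-kB induces, followed at 2.43-fold. In macrophages 6 of the 11 were male-higher and 0 female-higher (median 0.59). The median of the NF-kB list was -0.25 in type 1 cells, 0.23 in mature cells and 0.12 in T cells. Among 7 measured mature dendritic markers 3 were male-higher: Ccl22, Ccr7 (751 and 407 CPM, 1.85-fold) and Relb (1.73-fold), which is on the NF-kB list too.

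The 18 chemokines split, with 7 male-higher and 6 female-higher by 1.5-fold. On the male side were Cxcl1, on 8 female UMIs (7.03-fold), Ccl3 (3.37-fold), Ccl22, Cxcl10 (2.44-fold), Cxcl3 (2.21-fold), the neutrophil attractant Cxcl2 (1.97-fold) and Ccl4 (1.6-fold). The interval of Cxcl3, on 7 female UMIs, ran from 0.952 to 5.97. On the female side were Ccl24, Ccl7, Ccl9, Ccl8, Ccl12 and Ccl6, which macrophages make. Ccl17 was near equal, at 0.927-fold (0.866 to 0.992), as was Cxcl9, at 1.04-fold.

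Antigen presentation differed little. Of 13 measured class II genes, 3 were male-higher and 1 female-higher (median log2 0.05). H2-Aa stood at 0.978-fold, H2-Ab1 at 1.01-fold and Cd74 at 1.12-fold. The 3 male-higher genes were Napsa (469.6 and 241 CPM, 1.95-fold, 1.68 to 2.27), H2-Oa (2.17-fold) and H2-Ob (1.61-fold), a pair that forms H2-O. The female-higher gene was the endosomal protease Lgmn (2.08-fold). None of 12 class I genes passed 1.5-fold either way. Of 12 costimulatory and checkpoint genes 2 were male-higher, Tnfsf9 at 2.29-fold and Cd40 at 1.79-fold, and 1 female-higher, the PD-1 ligand Pdcd1lg2 at 2.06-fold (183 and 377 CPM). Cd80, Cd86 and Cd274 were 0.948, 1.34 and 1.06-fold.

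Of 17 dendritic transcription factors, 3 were male-higher (Relb, Bcl6 and Id2) and 2 female-higher (Tcf4 and Klf4), and the type 2 factor Irf4 stood at 0.823-fold. Tcf4, the factor of plasmacytoid cells, was at 78.8 and 196 CPM. Kit was 1.9-fold (1.47 to 2.47) higher in male members and Cd7 2.56-fold (1.82 to 3.67), while Flt3 was 0.723-fold (0.532 to 0.985), lower in the male sum. Its thinned shares, 13.7% and 8.82%, ran against that order, and their intervals overlapped. Of 17 cytokine receptors 0 were male-higher and 3 female-higher: Csf1r at 1.85-fold, Il7r at 1.84-fold and Crlf2, part of the receptor for thymic stromal lymphopoietin, at 1.55-fold.

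C-type lectins lay toward the female side, with 6 of 16 female-higher and 3 male-higher (median -0.46), the most abundant being Clec7a (dectin 1) at 3930.1 and 6095 CPM and Mgl2 at 3191 and 4224 CPM. T cells held 295 and 1172 CPM of Clec7a. Hypoxia and glycolysis genes were female-higher in 6 of 13 and male-higher in 0 (median -0.55), among them Aldoa (1.84-fold), Vegfa (1.78-fold) and Ero1l (2.18-fold). The median of that list was -0.51 in macrophages, -0.66 in type 1 cells and -0.19 in T cells. The interferon lists had no common direction: 4 of 15 type I genes were male-higher and 2 female-higher, and 3 of 14 interferon-gamma genes against 1. Of the remaining lists, read beside the same shares, chemokine and migration receptors had 2 male-higher and 4 female-higher of 9, Toll-like and nucleic acid sensors 3 and 1 of 11, tissue dissociation and stress genes 4 and 1 of 14, and regulatory and retinoid genes 1 and 4 of 8. The single male-higher gene of the latter was Ptgs2. The medians of 9 lists (class II, chemokines, chemokine receptors, cytokine receptors, transcription factors, sensors, stress and both interferon lists) took the other sign under at least 1 alternative setting.

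Macrophage markers were female-higher in 9 of 11 and male-higher in 1, Adgre1, with a median of -1.18. Their sum over 11 genes, C1q not among them, was 1251 CPM in male and 2210.2 in female members, beside 910 and 2587 CPM in T cells, 10614.9 and 12198 in macrophages, and the T cell median was -1.34. Mrc1, the mannose receptor, was 2.27-fold higher in female members and Apoe 2.19-fold. Mrc1 was found after thinning in 17.5% (12.7 to 23.4) and 45.1% (35.2 to 55.3) of members and in 8.15% and 34.4% of T cells. Monocyte markers were female-higher in 6 of 10 and male-higher in 0 (median -0.81), and in T cells 8 of 11 were female-higher. Among them Chil3 had 3 male UMIs, and its thinned share in female members, 17.6%, was close to that in female T cells, 16.3%. The part of free RNA in these lists was not tested.

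**Figure D5:**
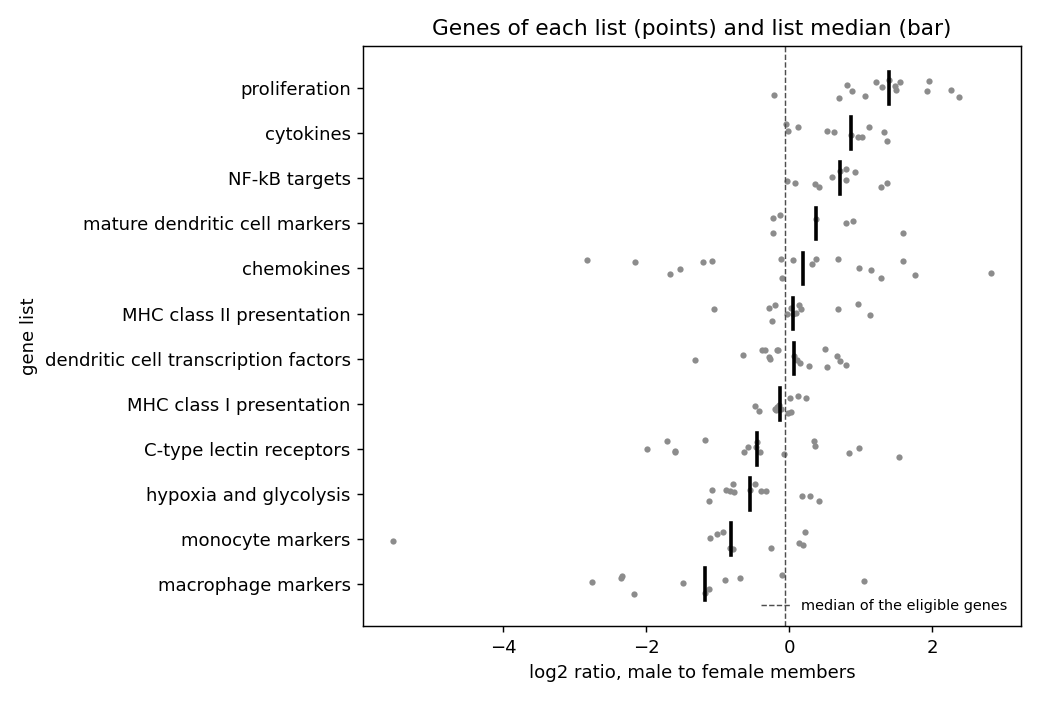
Log2 male:female ratio of each measured gene (points) in 12 gene lists (y axis) in the members, with the list median as a bar and the median of all eligible genes (-0.05) dashed. Proliferation (1.39), cytokines and NF-kB targets lay to the right and macrophage markers (-1.18) to the left.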

How the data were processed

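Single-cell libraries were made per the labels with the BD Rhapsody whole-transcriptome system from live sorted cells of digested tumours, and CASAVA 1.8, UMI-tools, Seurat and the build mm10 are named in the submitters' processing notes. For the aligner, and for any removal of doublets before deposit, nothing was given in the sources used here. Raw UMI counts per gene and cell, without normalization, were deposited by the authors with gene symbols.

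From the counts, cells with at least 500 UMIs, 250 genes and at most 25% mitochondrial UMIs were kept, and the members and comparison classes were cut by marker UMIs (type 1: Xcr1 and Clec9a together at least 2 and Fscn1 below 2; mature: Fscn1 at least 2 and Ccr7 at least 1; T cell: Cd3d, Cd3e and Cd3g together at least 2 and no Cd209a; macrophage: C1q at least 0.3% and no Cd209a). All but the macrophages had C1q below 0.3%. UMIs were summed per class and library and scaled to CPM. Ratios have exact conditional intervals and shares Clopper-Pearson intervals at 95%; both cover counting error only. Class medians ran from 2539.5 to 10534.5 UMIs per cell. Genes were eligible at 100 UMIs and 100 CPM, without sex-linked, mitochondrial, ribosomal, haemoglobin, immunoglobulin and T cell receptor genes. No p-value was computed, since each sex and gate had 1 library. Scrublet (scanpy 1.11.5) marked 0 male and 1 female cell by its own threshold, so it did not work here and no cell was removed by it. The ratio code was tested on simulated data.

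Named genes were the 12 largest and 12 smallest male:female ratios where no cell held over 20% of the UMIs of the higher library, the 12 largest folds over each class, the markers, and the extreme and most abundant genes of each list. The 4 female-higher genes with more than 20% of UMIs in 1 cell, genes compared within members and other list genes outside this rule were named after their values were seen. 1 gene that met a rule is not reported here. The members and lists were chosen with earlier results of these data known. Promoters came from RefSeq (GRCm38.p6) and gene positions from GENCODE M21 (GRCm38). Software was Python 3.11.15, numpy 2.4.6, scipy 1.17.1 and pandas 2.3.3.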

Additional observations from a re-analysis of the deposited data

Results flagged for a closer look

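The CD45-negative libraries held marker UMIs although no cell there met the rule. In the male library 279 UMIs of H2-DMb2, 242 of Ccl17, 158 of Napsa and 92 of Flt3 were counted over 5496 kept cells. In the female library 103 UMIs of H2-DMb2, 195 of Ccl17, 26 of Napsa, 90 of Flt3 and 5 of Cd209a were counted over 3905 cells, the last in 2 cells. Each of these 9 counts is above the 3 that a count of 0 allows. Cd209a in the male library, at 1 UMI, was not above it. They came to 4.53 CPM or less for each gene, and 1 cell with at least 2 Cd209a UMIs in the female library met every condition except the C1q limit.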

How the results depend on the processing

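No paired analysis was possible because each sex and gate had 1 library. With Cd209a at 1 UMI the shares were 4.76% male and 2.98% female, and at 4 UMIs 3.38% and 1.85%. With a C1q limit of 0.1% the female share was 1.07%, the ratio of shares 3.43 and the genes 4-fold above type 1 cells 51. With 1% the shares were 4.63% and 2.87%, those genes 7, the genes 4-fold above mature cells 36, and Retnla turned to 1.35 on the log2 scale. The stricter cell filter (2000 UMIs, 1000 genes, 10% mitochondrial) gave shares of 5.58% and 2.83%. Members holding 2 UMIs of T or NK cell, neutrophil or B cell markers (Igkc, Jchain, S100a8 and S100a9 aside) were left out in another setting. There the shares were 2.38% and 1.02%, the ratio 2.33 and the genes 2-fold higher in male members 78 of 1810 tested. Thinning to 2000 UMIs gave 20 genes 2-fold higher in female members, with 1004 genes tested in place of 1818. With 20 UMIs and no CPM minimum, 7595 genes were tested, and 385 were higher in male and 388 in female members. The cause was not tested, except that fewer or more genes were tested in the latter settings. The other 56 of 76 values for shares and gene counts stayed within their interval or 1.5-fold, including median-of-ratios scaling, the mean of the cells' CPM, leaving out each gene's highest cell, leaving out the 5% highest doublet scores and, as an alternative chosen after seeing the data, leaving keratin-bearing cells out of the mature class. The doublet setting removed 7 male members and 1 female member by a score that did not work here, so it cannot speak to doublets. The 28 genes named between the sexes kept their direction in 335 of 336 values. They were picked for extreme ratios in the same libraries that every setting reuses, so this count is a description and no support. The setting with 20 UMIs and no CPM minimum changed only which genes were tested, so their ratios there equalled the main ones. Shares in the female members rest on 104 cells, and the female type 1 class on 32.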
